A study of Mus musculus with 8 samples.

Results

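The mESC samples lacking Rad9 (R9del, genotype Rad9-/-) were compared after 5 days (D5) and 1 day (D1) of culture. The comparison takes every R9del column of the gene count matrix, Space_R9del_D5 and Ground_R9del_D5 on one side and Space_R9del_D1 and Ground_R9del_D1 on the other, so that 4 of the 8 libraries of the study belong to it, with 2 libraries a side. Each D5 library was paired with the D1 library of its own location. The other 4 libraries came from wild-type mESCs (R9wt) under the same conditions, and they serve here only to show where R9del cells differed.

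The study grew mouse embryonic stem cells (mESCs) in automated culture devices onboard a recoverable satellite (space) or in the same kind of payload on Earth (ground), and sequenced their mRNA. Every condition was 1 library, and nothing in the labels tells whether the R9del cells were 1 clone or several, so an R9del trait cannot be told apart from a trait of this cell line. In the flight payload and its ground copy, the D1 and D5 devices sat in separate groups with a temperature control each, fewer cells were seeded for D5 than for D1, and the D1 cells were fixed in RNAlater earlier and stored longer. These differences and culture duration cannot be told apart, and p-values here measure only the spread between libraries.

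Mouse embryonic stem cells hold a pluripotent state in which Pou5f1, Sox2 and Nanog are on, and a culture usually contains a few cells that leave it for some hours or for good. A small fraction briefly turns on genes of the embryo at the 2-cell stage, among them the Zscan4 cluster, which is known for its link to telomere maintenance. Other cells start towards primitive endoderm, the layer that later makes the yolk sac and is marked by Gata4, Gata6, Dab2 and type IV collagen, or towards the formative and primed states that precede the germ layers, marked by Fgf5, Pou3f1 and Lef1. Rad9a encodes a subunit of the clamp that is loaded at damaged DNA and activates the replication checkpoint.

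The R9del libraries held 67640365 counts in Space_R9del_D1, 65678502 in Ground_R9del_D1, 58238440 in Space_R9del_D5 and 72077524 in Ground_R9del_D5. A count of 0 allows up to 3 counts, which stood for 0.041 to 0.0503 CPM (counts scaled to a common library total), and this limit covers counting error only. The labelled cell type was checked with 6 embryonic stem cell markers, all of which exceeded 1 CPM in every R9del library, with a summed level of 3788 and 3860 CPM at D1 and 4595 and 4313 CPM at D5. Embryonic fibroblast markers summed to 34.1 CPM in space and 26.7 CPM on the ground at D1 and to 51.9 and 31.4 CPM at D5, with 2 to 5 of the 10 at 0 in each library and 0 of the 5 tested called. Blood cell markers summed to between 2.58 and 7.71 CPM and neuron markers to between 97.0 and 137 CPM, moving in opposite directions in the 2 locations, and Ptprc was the only called member of either (lower). Endothelial markers summed to 219 and 129 CPM at D1 and to 355 and 166 CPM at D5, with 0 of 4 called. Calls are defined below, and 2.59% of all genes were called higher and 3.54% lower. The part of these cell types in the results below was not tested. Rad9a, on chromosome 19 of mm9 from 4195198 to 4201603, was still counted in the R9del libraries, at 20.8 CPM in space and 23.3 CPM on the ground at D1 and at 26.9 and 28.6 CPM at D5. In R9wt it was at 89.3 and 93.4 CPM at D1 and at 70.3 and 85.9 CPM at D5, so all 4 R9del libraries lay below all 4 R9wt libraries. In R9del its log2 fold change with culture duration was 0.34 ± 0.24 (SE, n = 2 libraries a side, adjusted p = 0.699), and reads from exons outside the deleted part were not separated.

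With location as a covariate, edgeR's quasi-likelihood test kept 21002 genes, of which 0 had an adjusted p under 0.05 (smallest 0.0807) and 2176 an unadjusted p under 0.05. DESeq2's Wald test placed 455 genes under an adjusted p of 0.05, and edgeR's exact test without location placed 52 there. At 2 thresholds (fold change of at least 2 and unadjusted p under 0.05, a "call" from here on), 543 genes (2.59% of those tested) rose and 743 genes (3.54%) fell at D5. Of the called genes, 338 of those that rose and 512 of those that fell were shifted at least 2-fold in both locations. Some of these lay below 1 CPM in every R9del library. Among genes that reached 1 CPM in one, called or not, only 283 were 2-fold higher and 374 lower in both locations. Leaving out a library breaks a pair, so those fits, here and below, also had no location term, and the lone library of a side was assumed to vary like the 2 of the other side. They called 217 genes higher without Ground_R9del_D1, 301 without Space_R9del_D1 and 272 without Space_R9del_D5, and 446 lower without Ground_R9del_D1 and 261 without Space_R9del_D1, and the fit of all 8 libraries called 272 higher and 323 lower. The fit of R9wt alone, with location, called 578 genes higher (2.73%) and 284 lower (1.34%) of 21159. Log2 fold changes below are given as D5 against D1 with their standard error, with 2 libraries a side.

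Among genes called, shifted 2-fold in both locations and with a mean log2 CPM of at least 1, the 12 that rose most by the smaller of their 2 ratios were led by Gabarapl1, which encodes a protein of the autophagosome membrane. Gabarapl1 (ENSMUSG00000030161, chromosome 6 of mm9 from 129483218 to 129492349, 4 exonic blocks) stood at 3.61 CPM in space and 4.01 CPM on the ground at D1, and at 40.9 and 33.1 CPM at D5. Its log2 fold change was 3.27 ± 0.29 (adjusted p = 0.0807), and both D5 libraries lay far above both D1 libraries. In R9wt it was already at 38.6 and 50.1 CPM at D1 and at 65 and 71.6 CPM at D5, so the D1 level of R9del was the low one among all 8 libraries.

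Fkbp5, a co-chaperone that binds the glucocorticoid receptor, was at 17.4 CPM in space and 15.3 CPM on the ground at D1 and at 84.8 and 69.5 CPM at D5 (log2 fold change 2.23 ± 0.22, adjusted p = 0.0878). Suz12, a core subunit of Polycomb repressive complex 2, was at 36.4 and 33.7 CPM at D1 and at 138 and 197 CPM at D5 (2.23 ± 0.23, adjusted p = 0.104). In R9wt neither gene followed duration, since Fkbp5 moved from 18.9 to 65.4 CPM in space and from 83.6 to 7.99 CPM on the ground, and Suz12 from 213 to 153 CPM and from 35.6 to 55.8 CPM. Aak1, a kinase that acts on the clathrin adaptor in endocytosis, rose from 1.99 to 12.7 CPM in space and from 2.47 to 22 CPM on the ground.

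For each of the other 8 of these genes, the D1 and D5 libraries did not overlap. The rule that chose all 12 favours this, and 15.6% of all genes tested had both D5 libraries above both D1 libraries. The pepsinogen gene Pga5 rose from 5.29 to 31.2 CPM in space and from 3.0 to 16.9 CPM on the ground, and Camk2b, a subunit of calcium/calmodulin-dependent kinase II, from 15.6 to 60.1 CPM and from 6.74 to 29.0 CPM. Xlr3a, an X-linked gene of a multicopy family, rose from 3.61 to 24.7 CPM and from 2.75 to 11.7 CPM, and 51.5% of its coding-transcript 50-mers also occur in other genes. Habp2, a secreted protease (log2 fold change 2.55), Rac2, a small GTPase best known from blood cells (2.24), Slco2a1, a prostaglandin transporter (2.21), Car8, a carbonic anhydrase-related protein (2.09), and Nxf7, of the RNA export factor family (2.07), had D5 levels between 3.66 and 15.2 CPM. Of these 12 genes, 9 were also higher at D5 in both locations of R9wt, and 6 were called higher there, against 2.73% of all genes.

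The 12 genes that fell most, by the same rule and abundance limit, were led by the transporter gene Abcb5. Coch, which encodes the extracellular protein cochlin, was the most abundant of them, at 131 CPM in space and 126 CPM on the ground at D1 and at 26.5 and 17.1 CPM at D5. The gene lies on chromosome 12 of mm9 from 52694361 to 52706760, with 12 exonic blocks, and its log2 fold change was -2.60 ± 0.24 (adjusted p = 0.0807). In R9wt Coch was also lower at D5 in both locations, going from 14.8 to 7.22 CPM and from 41.9 to 6.34 CPM.

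Abcb5, an ATP-binding cassette transporter, fell from 11.2 to 0.788 CPM in space and from 4.68 to 0.588 CPM on the ground (log2 fold change -3.41 ± 0.41, adjusted p = 0.126). Vrtn, which is known for its effect on the number of vertebrae, fell from 5.6 to 0.838 CPM and from 8.49 to 1.26 CPM. Both had D5 values below both D1 values, which the rule that chose them favours and which held for 15.2% of all genes tested. Of these 2 genes only Vrtn reached 2 CPM in any R9wt library.

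The other genes included transcription factors of several lineages. Lef1, a DNA-binding partner of beta-catenin in Wnt signalling, fell from 7.26 to 2.26 CPM in space and from 13.1 to 3.33 CPM on the ground (-1.83 ± 0.32, adjusted p = 0.193). Bcl11a, a zinc finger repressor of blood and neural cells, fell from 8.44 to 2.06 CPM and from 20.2 to 5.99 CPM. Gcm1, a factor of the placental labyrinth (log2 fold change -2.10), Rxrg, a retinoid X receptor (-2.01), Tmem72, a membrane protein (-2.17), and the 2-cell-stage genes Zfp352 (-3.12), Dub1a (-2.50) and Usp17l5 (-2.48) were also among them. In R9wt 6 of these 12 genes stayed below 2 CPM in all 4 libraries. There 6 of the 12 were lower and 4 higher at D5 in both locations. In R9wt 2 of them were called lower and Dub1a was called higher, against 1.34% and 2.73% of all genes.

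**Figure D1:**
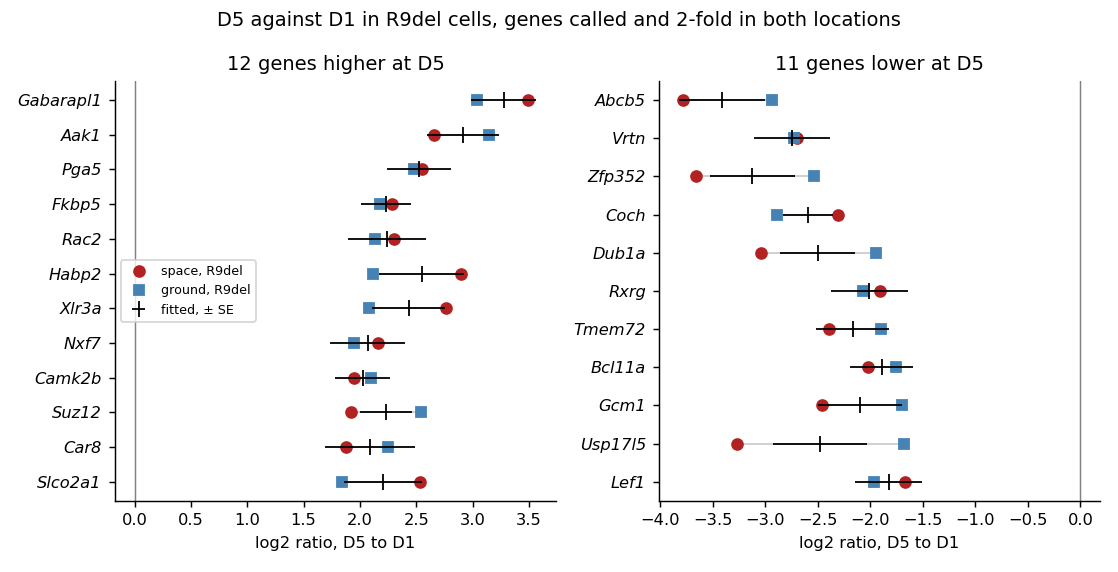
Log2 ratio of D5 to D1 in R9del cells for the 12 genes that rose (left) and 11 of those that fell (right) by the rule for named genes, with 1 ratio per location (circle, space; square, ground) and the fitted log2 fold change with its standard error (bar). All 23 genes drawn lie beyond a log2 ratio of 1 in both locations, from Gabarapl1 at 3.49 in space and 3.04 on the ground to Lef1 at -1.67 and -1.96.

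The 2-cell-like genes fell together with culture duration, and their median was the farthest from 0 among the lists examined. Of 13 genes tested, 0 rose and 12 fell at D5, against 3.54% of all genes that fell, and the list's median log2 fold change was -2.21, against 0.00 over all genes. All 13 had both D5 libraries below both D1 libraries, which held for 15.2% of all genes tested (15.6% had both D5 libraries above both D1 libraries). The fall was larger in space than on the ground, with a median log2 ratio of -3.11 and -1.29, and the space D1 library held the highest level for 12 of the members.

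The named copies of the Zscan4 and Usp17l families lie in 2 regions of chromosome 7, and their near-identity bears on how the reads could be counted. The promoters of 3 Zscan4 genes and of 2 Usp17l genes are shown because these genes moved together, from 250 bases before to 50 bases after the annotated start (RefSeq, GRCm38.p6), written 5′ to 3′. Capitals mark bases that differ from the first gene of the set when the sequences are laid side by side without gaps.
Zscan4c: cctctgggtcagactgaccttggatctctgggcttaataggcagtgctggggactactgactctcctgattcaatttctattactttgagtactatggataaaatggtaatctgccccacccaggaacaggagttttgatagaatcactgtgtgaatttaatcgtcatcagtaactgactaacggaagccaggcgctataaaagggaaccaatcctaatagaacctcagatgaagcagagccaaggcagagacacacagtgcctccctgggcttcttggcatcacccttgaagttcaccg
Zscan4f: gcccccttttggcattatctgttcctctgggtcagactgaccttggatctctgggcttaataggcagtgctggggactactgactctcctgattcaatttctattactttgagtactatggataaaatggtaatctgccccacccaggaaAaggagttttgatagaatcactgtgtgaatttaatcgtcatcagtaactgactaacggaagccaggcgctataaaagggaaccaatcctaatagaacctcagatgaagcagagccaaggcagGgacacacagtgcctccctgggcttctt
Zscan4d: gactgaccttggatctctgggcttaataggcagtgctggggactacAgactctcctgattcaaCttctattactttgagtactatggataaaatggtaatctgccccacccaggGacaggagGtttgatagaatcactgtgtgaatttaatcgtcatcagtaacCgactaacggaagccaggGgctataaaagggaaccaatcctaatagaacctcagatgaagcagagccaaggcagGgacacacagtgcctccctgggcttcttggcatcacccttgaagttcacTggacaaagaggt
Usp17lc: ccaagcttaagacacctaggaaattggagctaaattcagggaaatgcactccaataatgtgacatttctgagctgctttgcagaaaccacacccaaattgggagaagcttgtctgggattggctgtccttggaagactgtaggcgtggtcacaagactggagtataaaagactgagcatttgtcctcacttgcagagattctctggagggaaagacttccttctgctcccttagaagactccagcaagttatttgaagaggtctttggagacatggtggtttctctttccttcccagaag
Usp17ld: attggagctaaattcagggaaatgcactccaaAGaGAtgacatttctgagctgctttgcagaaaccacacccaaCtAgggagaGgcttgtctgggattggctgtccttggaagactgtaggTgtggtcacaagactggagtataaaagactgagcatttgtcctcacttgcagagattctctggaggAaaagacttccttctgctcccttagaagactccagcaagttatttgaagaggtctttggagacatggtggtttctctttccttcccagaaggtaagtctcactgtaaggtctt

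In GRCm38.p6 these windows are chr7:11005495-11005794 (plus strand, Zscan4c), chr7:11397665-11397964 (plus, Zscan4f), chr7:11166099-11166398 (minus, Zscan4d), chr7:103416446-103416745 (plus, Usp17lc) and chr7:103252456-103252755 (minus, Usp17ld). The Zscan4f window matched that of Zscan4c at 275 of 277 aligned bases (99.3%), and the Zscan4d window at 281 of 289 (97.2%). The Usp17ld window matched that of Usp17lc at 269 of 278 bases (96.8%). All 5 windows hold the letters TATAAAAG, a TATA-box sequence found on either strand in 1.70% of the 32851 promoter windows of the same table, and such a match is a description only. In the coding transcripts, 89.6% of the 50-mers of Zscan4f, 78.7% of those of Zscan4c and 47.2% of those of Zscan4d also occur in other genes, so the level of a single copy is uncertain and the copies are not independent of each other.

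Zscan4f was at 299 CPM in space and 88.7 CPM on the ground at D1, and at 32.2 and 38.7 CPM at D5 (log2 fold change -2.21, adjusted p = 0.221). Zscan4c was at 232 and 67.7 CPM at D1 and at 24 and 30.2 CPM at D5 (-2.22 ± 0.49, adjusted p = 0.236), and Zscan4d at 142.5 and 40.6 CPM at D1 and at 16.5 CPM in both D5 libraries. The D1 libraries were high, the space one most of all, and the D5 libraries of both locations came close to each other.

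Of the deubiquitinase genes of the Usp17l family, Dub1a (Usp17lb) fell from 41.5 to 5.01 CPM in space and from 17.1 to 4.44 CPM on the ground (-2.50 ± 0.36, adjusted p = 0.17). Usp17l5 (Usp17lc) fell from 26.2 to 2.70 CPM and from 10.4 to 3.24 CPM, and Usp17le, Usp17la and Usp17ld also fell, with log2 fold changes of -1.95, -2.04 and -2.21. Zfp352, a zinc finger gene of the 2-cell embryo with 8.5% of its 50-mers shared with another gene, fell from 16.7 to 1.29 CPM and from 7.25 to 1.23 CPM (-3.12 ± 0.41, adjusted p = 0.135). Tdpoz3 and Tdpoz4, BTB-domain genes, fell by 2.56 and 2.92 on the log2 scale, and Sp110, a nuclear body protein gene, by 1.94. Only Eif1a was not called, at 339 and 352 CPM at D1 and at 310 and 321 CPM at D5.

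R9wt cells had little of this expression at either time. Zscan4f lay between 3.06 and 5.28 CPM in the 4 R9wt libraries, Zscan4c between 2.31 and 4.42 CPM and Dub1a between 0.151 and 1.86 CPM. R9wt called 1 of 11 tested members higher (Dub1a) and 0 lower, against 2.73% and 1.34% of all genes, with a median log2 fold change of 0.59. The other 2 did not pass the filter on low counts there. The count floor of the R9wt libraries was 0.0335 to 0.0491 CPM. Zscan4f and Zscan4c lay well above it, while for members as low as Dub1a a fall would be hard to measure. The interaction of genotype and duration, fitted over all 8 libraries, passed adjustment for no gene (0 of 22659 at an adjusted p under 0.05 in edgeR's test, 983 or 4.34% at an unadjusted p under 0.05, and 159 at an adjusted p under 0.05 in DESeq2's Wald test). In edgeR's test its unadjusted p was under 0.05 for 9 members of this list, with a median difference of log2 fold changes of -3.34. Near-identical copies among these members are not independent. Without Space_R9del_D1, 7 members of the list were called lower, with the spread taken from the D5 libraries alone.

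**Figure D2:**
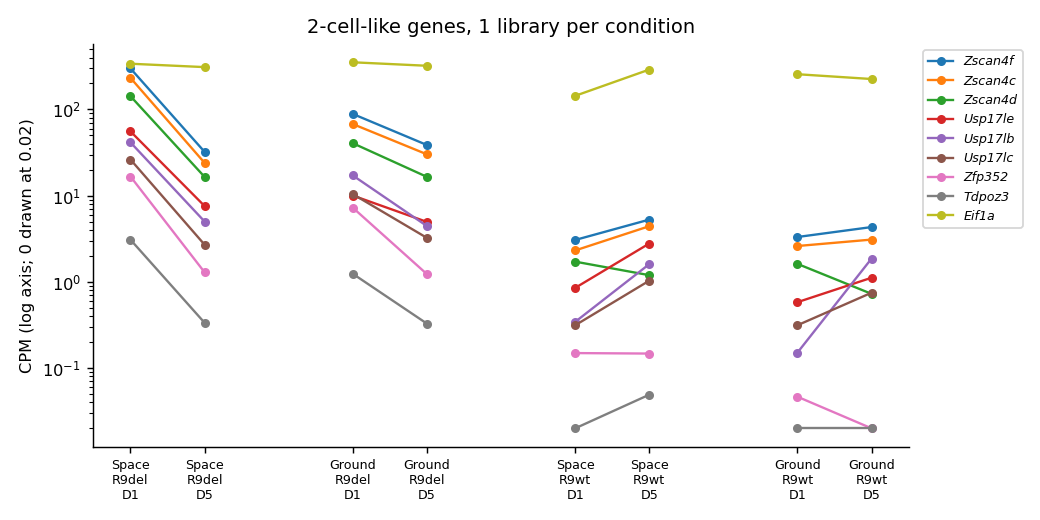
CPM on a log axis of 9 genes of the 2-cell-like list in the 8 libraries, with a line from D1 to D5 within each location and genotype (values of 0 drawn at the lower edge). In R9del each gene falls in both locations, Eif1a least, while in R9wt all but Eif1a stay below 6 CPM.

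The primitive and visceral endoderm genes went the other way, and more so in space. Of 21 genes tested, 8 rose and 0 fell, against 2.59% of all genes that rose, and the list's median log2 fold change was 1.14. The median log2 ratio was 1.76 in space and 0.49 on the ground, and 19 members were higher at D5 in space against 14 on the ground. Without Space_R9del_D5 or without Space_R9del_D1, 2 members were called, and without Ground_R9del_D5, 11 were called. In the R9wt fit, 5 of 21 were called higher (2.73% of all genes) with a median of 1.69, and the interaction had an unadjusted p under 0.05 for 1 member, near the 4.34% of all genes.

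Dab2, an endocytic adaptor needed for the endoderm epithelium, was at 32.4 CPM in space and 16.0 CPM on the ground at D1 and at 138 and 35.1 CPM at D5 (log2 fold change 1.61, adjusted p = 0.193). Gata4, a transcription factor that drives the endoderm programme, was at 4.02 and 5.71 CPM at D1 and at 15.8 and 9.73 CPM at D5 (1.37). Srgn, a proteoglycan of parietal endoderm, was at 8.46 and 12.2 CPM at D1 and at 43.9 and 29.1 CPM at D5 (1.82 ± 0.34, adjusted p = 0.197). In all of them both D5 libraries lay above both D1 libraries, and the space D5 library was the highest in R9del. Of the 21 members tested, 9 had both D5 libraries above both D1 libraries, against 15.6% of all genes.

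Cubn and Amn encode the receptor pair that takes up vitamin B12 with intrinsic factor in visceral endoderm. Cubn rose from 20.4 to 135 CPM in space and moved from 17.6 to 24.7 CPM on the ground (1.61 ± 0.52, adjusted p = 0.371). Amn was at 0.526 CPM in space and 7.86 CPM on the ground at D1 and at 6.44 and 16.3 CPM at D5, so the D1 and D5 values overlapped across locations although both pairs rose (2.24 ± 0.62). Over the alternative fits the log2 fold change of Cubn ran from 0.38 to 2.83 and that of Amn from 0.53 to 4.43. Ihh, a hedgehog ligand of visceral endoderm, rose from 0.569 to 2.25 CPM and from 0.762 to 1.64 CPM. The apolipoprotein gene Apoa4 had no count at D1 and was at 0.252 and 0.328 CPM at D5, at least 6.62-fold above the mean floor of the D1 libraries, and Afp, the fetal serum protein gene, went from 0.0995 to 0.402 CPM and from 0.0449 to 0.396 CPM. With Apoa4 at that bound the list's median was 1.14.

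Among the 13 members that were not called, some were higher at D5 in space alone. Gata6, the partner of Gata4, was at 4.19 CPM in space and 4.54 CPM on the ground at D1 and at 14.3 and 4.55 CPM at D5, and Sparc, a matrix protein, at 665 and 698 CPM at D1 and at 1644 and 625 CPM at D5. The summed level of the 8 endoderm markers was 45.8 and 47.3 CPM at D1 and 198 and 67.7 CPM at D5. All members tested in the endoderm list summed to 1052 CPM in space and 963 CPM on the ground at D1. At D5 they summed to 2634 CPM in space and 931 CPM on the ground, so the ground sum did not rise. Among 21 collagen and laminin genes, 2 rose and 0 fell, against 2.59% and 3.54% of all genes: Col4a1 from 91.7 to 381 CPM in space and from 62.5 to 112 CPM on the ground, and Col4a2 from 86.1 to 357 CPM and from 65.1 to 121 CPM. These encode the type IV collagen chains of basement membrane, which endoderm secretes. Over the alternative fits the log2 fold change of Col4a1 ran from 0.54 to 2.31 and that of Col4a2 from 0.68 to 2.24. The collagen and laminin list had a median of 0.20, with 12 positive and 9 negative values. R9wt called 7 of 20 members higher and 0 lower (2.73% and 1.34% of all genes), with a median of 0.94. The interaction had an unadjusted p under 0.05 in edgeR's test for 6 members, against 4.34% of all genes (median difference -0.64). In bulk samples more cells of a type and more RNA per cell cannot be told apart.

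**Figure D3:**
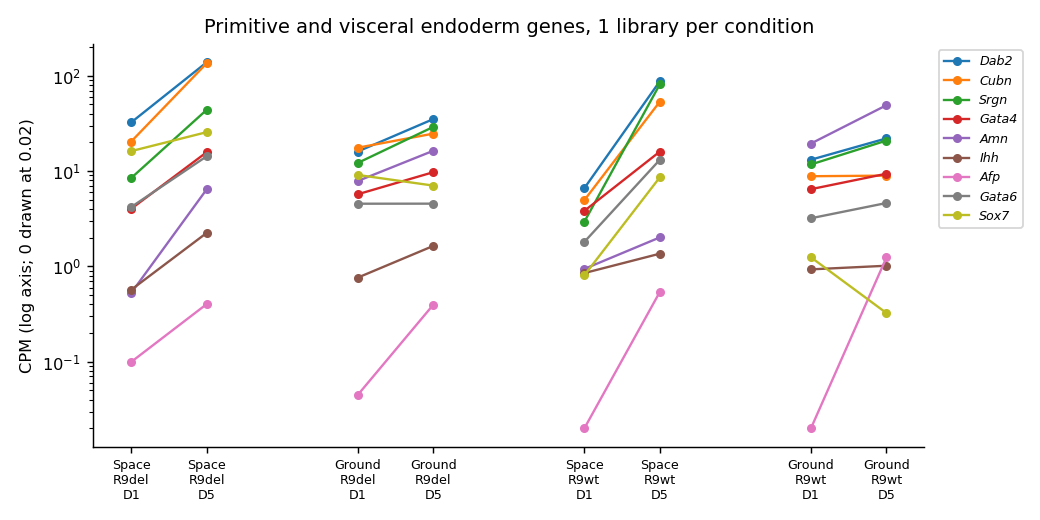
CPM on a log axis of 9 genes of the primitive and visceral endoderm list in the 8 libraries, with a line from D1 to D5 within each location and genotype (values of 0 drawn at the lower edge). In R9del the lines of Dab2 and Cubn are steeper in space than on the ground, where Gata6 stays at 4.54 and 4.55 CPM.

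Trophoblast genes, which mark the outer layer of the blastocyst, showed 4 of 13 members called higher and 0 called lower, against 2.59% and 3.54% of all genes, with a median log2 fold change of 0.58. The keratins Krt18 and Krt8 rose from 160 to 248 CPM and from 84.5 to 126 CPM in space, and from 103 to 407 CPM and from 68.4 to 189 CPM on the ground. Krt7 moved from 16.4 to 20.2 CPM in space and from 12.1 to 53.3 CPM on the ground, and Hand1, a factor of giant cells, from 29.3 to 33.7 CPM and from 16.8 to 63.3 CPM. Here the ground pair moved more than the space pair, with medians of 1.41 and 0.07. The keratins are also epithelial genes of endoderm. The placental genes Tpbpa and Prl3d1 had no count in any R9del library, and Elf5 lay between 0 and 0.284 CPM. Gcm1, the placental factor given above, was not in this list and was called lower (-2.10). R9wt had 7 of 14 members called higher (2.73% of all genes) with a median of 2.49, and the interaction had an unadjusted p under 0.05 for 7 members, against 4.34% of all genes (median difference -2.58). Without Ground_R9del_D1 or without Ground_R9del_D5, 0 members were called, and without Space_R9del_D1, 1 was.

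Of 17 genes of the formative and primed state, 4 fell and 0 rose at D5, against 3.54% and 2.59% of all genes, the median log2 fold change was -0.55, and 10 members had both D5 libraries below both D1 libraries, against 15.2% of all genes. Without Ground_R9del_D1, 1 member was called lower, and without Ground_R9del_D5 or Space_R9del_D5, 2 were. Pou3f1, a POU-domain factor that appears as cells leave the naive state, was at 9.66 CPM in space and 22.1 CPM on the ground at D1 and at 3.64 and 5.85 CPM at D5 (-1.67 ± 0.30, adjusted p = 0.193). These counts are those of a Pou3f1 model that the annotation lists as a pseudogene and whose exons overlap another model over 99.8% of their length, so they are uncertain. Fgf5, the classical marker of the epiblast, fell from 1.91 to 0.604 CPM and from 1.57 to 0.437 CPM, and Sall2 from 5.42 to 2.01 CPM and from 4.35 to 2.21 CPM. Lef1, given above, was the fourth. The de novo methyltransferase Dnmt3b, at 116 and 166 CPM at D1 and at 85.2 and 105 CPM at D5, was not called. R9wt called 0 higher and 3 lower of 17 (2.73% and 1.34% of all genes) with a median of -0.80, and the interaction had an unadjusted p under 0.05 for 3 members, against 4.34% of all genes.

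None of 13 general pluripotency genes was called, against 2.59% of all genes called higher and 3.54% called lower, and the list's median was 0.02. Pou5f1 was at 1381 CPM in space and 1578 CPM on the ground at D1 and at 1541 and 1449 CPM at D5 (0.02 ± 0.16, adjusted p = 0.985), with overlapping D1 and D5 values. Of 16 naive genes, 1 rose and 0 fell, against 2.59% and 3.54% of all genes: Tcl1, a cofactor of Akt, went from 68.5 to 176 CPM in space and from 78.3 to 168 CPM on the ground (1.23 ± 0.19, adjusted p = 0.191). Zfp42, also named Rex1, was at 852 and 700 CPM at D1, but at 207 CPM in the space D5 library and 796 CPM in the ground one (-0.93 ± 0.49, adjusted p = 0.58, not called).

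Signalling targets fell in part. Among 13 genes of BMP signalling and the Id family, 4 fell and 2 rose, against 3.54% and 2.59% of all genes, with a median of -0.15. Id3, a BMP-induced inhibitor of helix-loop-helix factors, fell from 261 to 104 CPM in space and from 327 to 114 CPM on the ground (-1.43 ± 0.18, adjusted p = 0.135), and Id1 from 64.8 to 41.1 CPM and from 107 to 40.5 CPM. Id2 fell from 51.4 to 12.9 CPM and from 72.3 to 33.6 CPM, while in R9wt it was higher at D5, going from 27.2 to 59.1 CPM and from 33.9 to 62.7 CPM. The ligand gene Bmp4 was not called, at 108 and 126 CPM at D1 and at 108 and 93.2 CPM at D5. Bmp7 and the inhibitory Smad7 rose by log2 fold changes of 1.03 and 2.81, and Smad7 was at 1.02 CPM in space and 14.8 CPM on the ground at D1 and at 35.3 and 23.6 CPM at D5. The D1 and D5 values of Smad7 did not overlap, but the D1 libraries lay far apart. Msx1, a homeobox target of BMP signalling, was the fourth to fall, from 1.17 to 0.654 CPM in space and from 9.15 to 3.32 CPM on the ground, and its value was 0.77 when Ground_R9del_D1 and the location term were left out. Without Ground_R9del_D1 or without Space_R9del_D5, 1 member of the list was called lower, and without either of the other libraries 2 were.

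Of 14 Wnt targets, 4 fell and 0 rose, against 3.54% and 2.59% of all genes, with a median of 0.02. Axin2, the feedback inhibitor of the pathway, fell from 12.4 to 6.05 CPM in space and from 14.8 to 5.64 CPM on the ground (-1.21 ± 0.29, adjusted p = 0.279). Lgr5 went from 1.79 CPM to no count in space and from 1.93 to 0.451 CPM on the ground, Sp5 from 0.142 CPM to no count and from 2.20 to 0.574 CPM, and the ligand Wnt8a from 1.44 to 0.620 CPM and from 1.73 to 0.533 CPM. Sp5 was lower at D5 within each location, and its value was 1.02 when Ground_R9del_D1 and with it the location term were left out. Without Ground_R9del_D1, 0 members of the Wnt list were called, and at a mean of at least 10 CPM 0 were called.

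Among 17 primitive streak and mesendoderm genes, 2 rose and 3 fell, against 2.59% and 3.54% of all genes (median 0.26). Lefty2, an inhibitor of Nodal, rose from 44.4 to 392 CPM in space and from 106 to 187 CPM on the ground, Foxa2 was called higher at up to 2.04 CPM, and Wnt3, Wnt8a and Evx1 were called lower (-1.26, -1.45 and -2.06). Of 10 early neural genes, 2 fell and 0 rose, against 3.54% and 2.59% of all genes: Pax6 from 1.78 to 0.402 CPM and from 2.27 to 0.711 CPM, and Nkx2-2 from 0.938 to 0.419 CPM and from 1.3 to 0.465 CPM.

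The genes of energy metabolism gave few calls. All 13 mitochondrially encoded genes were lower at D5 in both locations, with a median of -0.47, and 0 were called at 2-fold. Of the 13, 7 had an unadjusted p under 0.05 in edgeR's test, against 2176 of the 21002 genes tested. Cytochrome b (mt-Cytb) was at 2430 CPM in space and 4620 CPM on the ground at D1 and at 1796 and 2709 CPM at D5, and mt-Nd6 at 118 and 461 CPM and at 68.2 and 217 CPM. The ground libraries were higher than the space libraries at both times for mt-Cytb and mt-Nd6. None of the 13 had both D5 libraries below both D1 libraries, against 15.2% of all genes. The share of all counts on mitochondrial genes was 1.82% in space and 3.39% on the ground at D1 and 1.46% and 2.46% at D5. Of 77 nuclear genes of oxidative phosphorylation, 0 were called (median 0.20, with 0.57 in space and -0.10 on the ground). Of 76 ribosomal protein genes 0 were called (median 0.26). These counts of 0 stand beside 2.59% of all genes called higher and 3.54% called lower.

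Of 20 glycolysis genes, 1 rose and 0 fell, against 2.59% and 3.54% of all genes, and the median was 0.38 with 18 positive values, where 10573 of the 21002 genes tested were positive. Aldoc, an aldolase isoform, was at 33.0 CPM in space and 27.9 CPM on the ground at D1 and at 72.8 and 61.6 CPM at D5 (1.14 ± 0.21, adjusted p = 0.193). Of 21 hypoxia response genes, 3 rose and 0 fell, against 2.59% and 3.54% of all genes: Car9, a carbonic anhydrase of acidic, oxygen-poor tissue, from 0.867 to 1.73 CPM and from 0.464 to 2.53 CPM, the angiogenic factor Vegfa from 4.52 to 5.92 CPM and from 3.48 to 11.8 CPM, and the collagen hydroxylase P4ha2 from 192 to 487 CPM and from 104 to 194 CPM. Bnip3, at 134 and 86.7 CPM at D1 and at 122 and 192 CPM at D5, and Ldha, at 4886 and 3565 CPM and at 5684 and 4270 CPM, were not called. None of 23 cholesterol synthesis genes was called, but 22 had a positive log2 fold change (median 0.50) and 15 had both D5 libraries above both D1 libraries, against 15.6% of all genes. Nsdhl, a sterol dehydrogenase, had the largest value in that list, at 33.1 and 33.7 CPM at D1 and at 76.6 and 49.1 CPM at D5 (0.88 ± 0.25, adjusted p = 0.326). Fabp3, a carrier of fatty acids, rose from 47.6 to 226 CPM in space and from 55.8 to 185 CPM on the ground (1.99 ± 0.21, adjusted p = 0.107).

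Cell cycle and stress genes were mostly not called. Of 27 DNA replication genes, 22 genes of G2 and M phase, 19 checkpoint clamp and damage signalling genes, 23 p53 targets, 18 endoplasmic reticulum chaperones and 26 genes of the amino acid and integrated stress response, 0 were called, with medians between -0.14 and 0.09. Most genes were not called in any case, with 2.59% of all genes called higher and 3.54% called lower. The p53 target Mdm2 was at 799 CPM in space and 333 CPM on the ground at D1 and at 480 and 344 CPM at D5 (-0.34 ± 0.23, adjusted p = 0.669). Of 17 genes of G1 regulation, the cyclin-dependent kinase inhibitor Cdkn1b rose (against 2.59% of all genes), from 3.61 to 6.09 CPM and from 4.59 to 11.0 CPM. Of 17 heat shock genes, the inducible pair Hspa1a and Hspa1b fell (against 3.54% of all genes), from 19 to 6.47 CPM and from 8.97 to 4.19 CPM in space and from 13.9 to 7.12 CPM and from 8.87 to 4.61 CPM on the ground, and 61% of the 50-mers of Hspa1a also occur in other genes. Of 46 replication-dependent histone genes, 3 fell (Hist2h2bb, Hist1h2bq and Hist1h4i), against 3.54% of all genes, and 41 had a negative value, with a median of -0.59. Transcripts of this class typically lack a poly(A) tail, but the models of Hist2h2bb and Hist1h2bq have 2 and 3 exonic blocks, and forms with a tail were not separated. The summed level of the list was 63.9 and 44.0 CPM in space and 246 and 182 CPM on the ground at D1 and D5, and many copies share sequence.

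**Figure D4:**
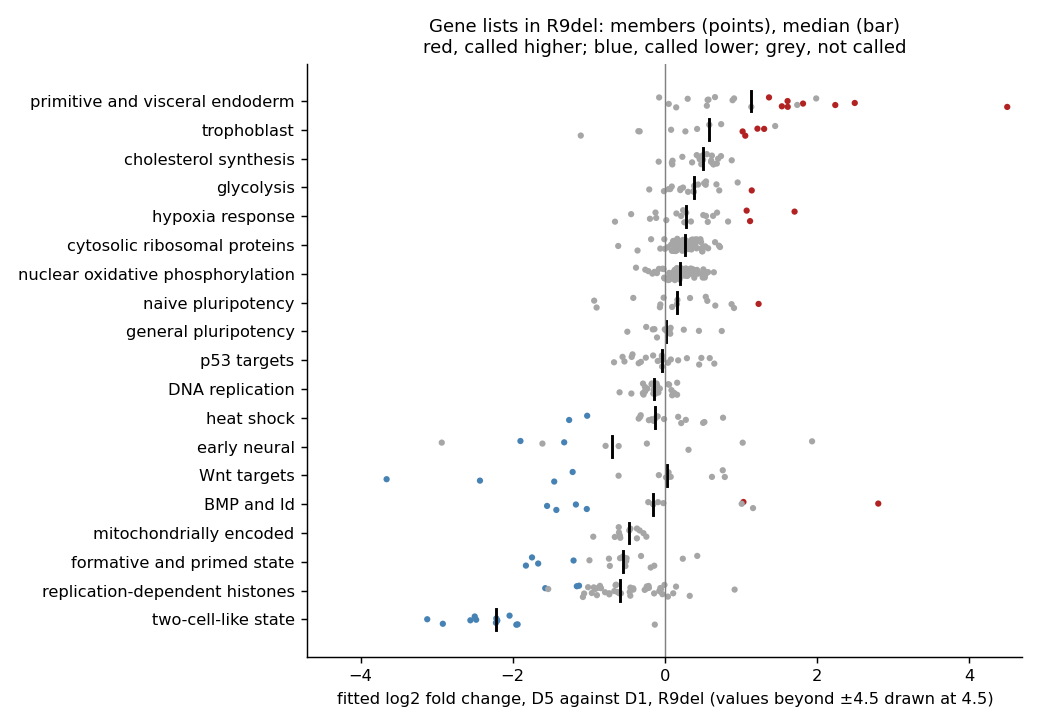
Fitted log2 fold change of D5 against D1 in R9del for the members of 19 gene lists (points, coloured by call) with each list's median (bar). The 2-cell-like list sits at a median of -2.21 and the primitive and visceral endoderm list at 1.14, while the DNA replication, p53 and general pluripotency lists sit between -0.14 and 0.02.

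The other lists gave few calls, to be read against the 2.59% of all genes called higher and the 3.54% called lower. Ion channel genes had 10 of 180 called higher and 3 lower, among them the glutamate receptor subunit Grin1 (7.93 and 4.95 CPM at D1, 19.8 and 23.4 CPM at D5) and the channels Kcnu1 (log2 fold change 1.88) and Trpm1 (1.77), all called higher. Genes of the brush border and lipid transport had 4 of 20 called higher, which are Fabp3 and the endoderm genes Amn, Cubn and Apoa4. Germline genes silenced by methylation had 3 of 18 called higher (Tuba3b, Tuba3a and Asz1) and Tdrd1 called lower, and imprinted genes had H19 called higher and Magel2 lower of 22. H19 was at 84.7 CPM in the ground D5 library against 11.5 to 19.7 CPM in the other R9del libraries, with a log2 ratio of 0.26 in space and 2.10 on the ground, and its value was -0.18 when Ground_R9del_D5 and the location term were left out. In R9wt H19 was called higher, going from 4.02 to 42.8 CPM in space and from 2.15 to 59.3 CPM on the ground. Of 17 Hox genes tested, Hoxd13 and Hoxc5 fell, both below 1 CPM in every R9del library. Single calls came from Gstm1 (higher) in 20 Nrf2 targets, Fosl1 (lower, with 68.1% of its exons overlapping another gene model) in 19 immediate early genes, Fgfbp1 (lower) in 14 genes of FGF feedback and Ifit1 (lower) in 17 interferon genes, and Ankrd1 (higher) and Ctgf (lower) in 20 genes of the actin cytoskeleton and Yap. In R9wt this actin and Yap list had 11 of 19 members called higher and 1 lower (2.73% and 1.34% of all genes), with a median of 1.44 against -0.16 in R9del. The interaction had an unadjusted p under 0.05 in edgeR's test for 11 of its members, against 4.34% of all genes (median difference -1.53). No member was called in the lists of LIF signalling (11 tested), antioxidant enzymes (17), metallothioneins (6), lysosome (23), MHC class I (11) and the Bcl2 family (15).

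A minority of the genes shifted 2-fold in one location were shifted in both. Without any test, since each ratio rests on 1 library against 1, 947 genes (5.81%) were at least 2-fold higher and 1199 (7.35%) at least 2-fold lower at D5 in space, of 16307 genes with at least 1 CPM in an R9del library. On the ground, 981 genes (6.02%) were higher and 875 (5.37%) lower. In both locations, 283 genes (1.74%) were higher and 374 (2.29%) lower, which is 29.9% of the genes higher in space and 28.8% of those higher on the ground, and 31.2% and 42.7% of the lower ones. Another 53 genes were higher in space and lower on the ground, and 61 the opposite. Spearman's rho of the ratios across genes was 0.276 in R9del and -0.017 in R9wt, as a description, since genes are not independent and each ratio shares library-wide differences.

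Of the sum of squares between the R9del libraries, location took 57.7%, duration 28.3% and their interaction 14.1%, against 46.9%, 28.0% and 25.1% in R9wt. Examples of the opposite movement were Arl5b, a small GTPase, at 2.64 CPM in space and 33.8 CPM on the ground at D1 and at 29.6 and 3.14 CPM at D5, and Gxylt1, a xylosyltransferase, at 33.0 and 6.25 CPM at D1 and at 4.33 and 23.8 CPM at D5. The fitted log2 fold changes of these genes were 0.02 ± 2.13 and -0.49 ± 1.25, and neither was called. Of the genes also chosen for qRT-PCR, Ube2s, a ubiquitin-conjugating enzyme, followed location, at 40.9 and 37.2 CPM in space and 388 and 570 CPM on the ground at D1 and D5, and Apoe, an apolipoprotein, did so at 69.4 and 165 CPM in space and 1713 and 1100.1 CPM on the ground. Neu1, Myc, Stac2, Plac1 and Lefty1 were not called, with log2 fold changes of 0.75, -0.74, 0.59, 1.45 and 0.74.

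**Figure D5:**
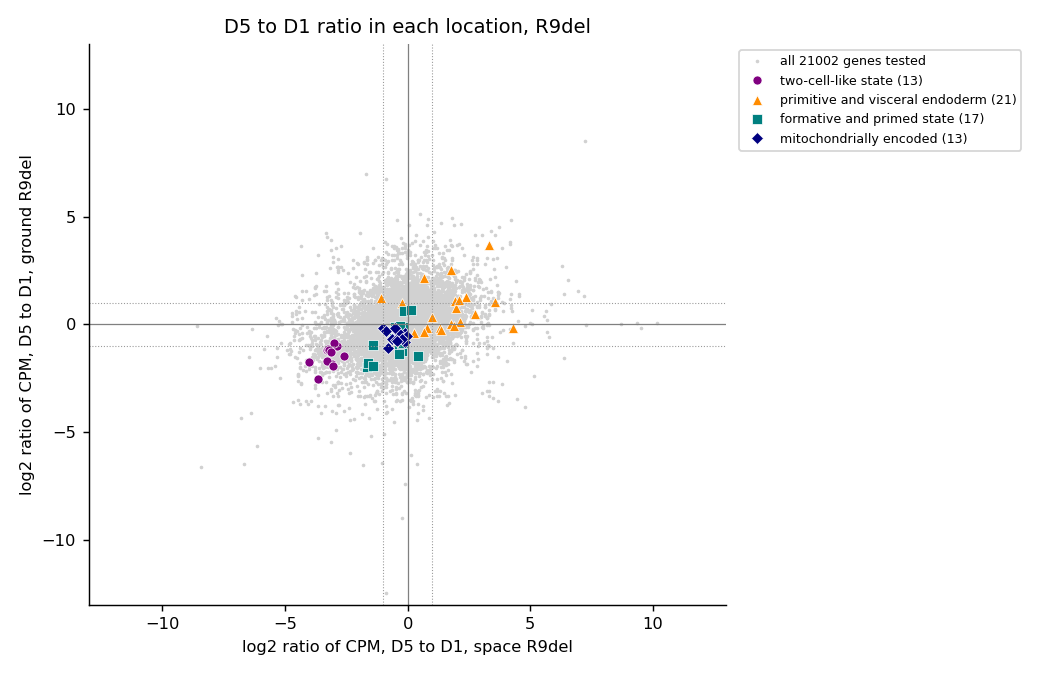
Log2 ratio of CPM of D5 to D1 in space (horizontal axis) against that on the ground (vertical axis) for the 21002 genes tested in R9del (grey) and 4 gene lists, with dotted lines at a 2-fold change. The 2-cell-like genes lie low on both axes, the endoderm genes lie to the right with a median of 1.76 in space and 0.49 on the ground.

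Among the genes with the smallest interaction p, Larp4b, an RNA-binding protein, was at 56.9 and 59.6 CPM at D1 and at 135 and 56.7 CPM at D5 in R9del, and went in R9wt from 152 to 18.9 CPM in space and from 123 to 9.67 CPM on the ground (difference of log2 fold changes 3.92). Anxa3, a membrane-binding annexin, and Gsn, an actin-severing protein, were not called in R9del, at 22.4 to 29.3 CPM and 28.9 to 42.0 CPM in the 4 libraries, while in R9wt Anxa3 went from 8.50 to 89.3 CPM and from 6.64 to 63.2 CPM and Gsn from 20.8 to 158 CPM and from 13.2 to 134 CPM. Bgn, a matrix proteoglycan, went the same way, at 1.11 to 3.39 CPM in R9del and from 1.51 to 27.1 CPM and from 0.838 to 22.8 CPM in R9wt. No such difference passed adjustment, with a smallest adjusted p of 0.326 in edgeR's test. The numbers of cells seeded for D5 also differed between the genotypes.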

How the data were processed

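Per the labels and the methods, total RNA was taken up with TRIzol, and paired-end mRNA libraries were aligned by the authors to the mm9 mouse genome with TopHat2 2.0.9. The submitters' processing notes also name FastQC and edgeR. The deposited table holds raw counts per gene, whole numbers for 50686 Ensembl identifiers. The counting program, annotation and use of strand are not given in the sources used here, so overlapping or near-identical genes could have exchanged reads. Names and coordinates came from GENCODE vM1 on mm9, which named 32722 identifiers holding 96.9% of the R9del counts.

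The comparison, its members and the gene lists were chosen with earlier results of these data known. Counts were scaled with TMM factors (edgeR 4.0.16, R 4.3.3) over all 8 libraries, filtered with filterByExpr at a minimum count of 10, and fitted by edgeR's quasi-likelihood method, location entering as a covariate, with Benjamini-Hochberg adjustment. Log2 CPM used a prior count of 2. Genes were named by a rule. It takes the 12 higher and 12 lower called genes (mean log2 CPM of at least 1, 2-fold in both locations) with the largest smaller ratio, up to 4 called members a list (or the 2 most abundant where none was called), 4 genes a direction of opposite location ratios (mean log2 CPM of at least 3), 4 a direction with the smallest interaction p, Rad9a and the qRT-PCR genes, leaving out gene models without a name and, except for Pou3f1, pseudogenes. Other members were named after their values were seen. Some genes that the rule names are not reported here. The alternatives were DESeq2 1.42.0 (size factors, Wald test), library size alone, TMM over the 4 R9del libraries, edgeR's exact test, other filters, fits without location or over all 8 libraries, a prior count of 0.5, thinned libraries and leaving out each library. The scripts were tested on simulated data. Shared 50-mers were counted between GENCODE coding transcripts.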

Additional observations from a re-analysis of the deposited data

Results flagged for a closer look

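The response to culture duration differed between R9del and R9wt by an unadjusted interaction test for these genes, those with the smallest p in each direction by the rule for named genes, and none passed adjustment in edgeR's quasi-likelihood test (159 genes of the whole table did in DESeq2's Wald test). The difference of log2 fold changes (R9del minus R9wt) was 3.92 for Larp4b, 2.66 for Gabarapl1, 1.75 for Aldoc and 2.04 for Etv4, a transcription factor downstream of FGF signalling that went in R9wt from 125 to 19.3 CPM in space and from 124 to 27.1 CPM on the ground. It was -5.46 for Dub1a, -3.17 for Anxa3, -2.88 for Gsn and -4.08 for Bgn. In R9wt Dub1a was called higher, going from 0.343 to 1.605 CPM in space and from 0.151 to 1.86 CPM on the ground. These levels were too near the count floor for a fall there to be measured well.

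In R9del 53 genes were 2-fold higher at D5 in space and 2-fold lower on the ground and 61 the opposite, and the rule for named genes takes 8 of them. This difference was not tested because each pair is 1 library against 1. The log2 ratio in space minus that on the ground was 6.89 for Arl5b, 4.76 for Ccdc71, 3.94 for Zfp180 and 3.22 for Pfkfb3, and it was -4.85 for Gxylt1, -4.04 for Tjap1, -3.91 for Sar1a and -3.25 for Pds5a.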

How the results depend on the processing

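With 1 library per condition, the spread comes from 2 pairs, so single genes are weakly supported: of 83 named genes that were called, 20 were called under each of the 12 or 13 alternatives that tested them, and 61 lost the call when some library was left out. Of the 24 genes shifted most in both locations, 14 were called in the same sense (the filter at 10 CPM removed 7 of them), and Fkbp5 lost its call in the fit of all 8 libraries. The cause of each change below was not tested, except that a stricter filter tests fewer genes.

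At a mean of at least 10 CPM, 112 genes were called higher and 117 lower, and 43 and 50 were 2-fold higher and lower in both locations. The lists then had 6 members (2-cell-like), 3 (endoderm), 1 (formative) and 0 (Wnt) called. Without a filter on low counts, 766 genes were 2-fold higher and 1389 lower in both locations. DESeq2's Wald test gave 455 genes at an adjusted p under 0.05 for duration and 159 for the interaction. edgeR's exact test without location called 356 genes higher, with 52 at an adjusted p under 0.05 and 2 Wnt targets. Without a location term, 315 genes were called higher, with 5 endoderm, 2 Wnt and 2 trophoblast genes. The fit of all 8 libraries called 272 higher and 323 lower, with 4 endoderm genes and 1 Wnt target.

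Leaving out each R9del library, which also removes the location term, called 217 to 455 genes higher and 261 to 832 lower, with 0 at an adjusted p under 0.05. The lists then had 7 to 12 (2-cell-like), 2 to 11 (endoderm), 1 to 3 (formative), 0 to 2 (Wnt), 1 to 2 (BMP and Id) and 0 to 6 (trophoblast) called. For the interaction, leaving out each of the 8 libraries gave 0 to 2 genes at an adjusted and 444 to 1961 at an unadjusted p under 0.05. The log2 fold change of Sp5 ran from -9.26 to 1.02 and that of Msx1 from -2.98 to 0.77, positive without Ground_R9del_D1, and that of H19 from -0.18 to 2.44, negative without Ground_R9del_D5, 2 choices having changed at once. The lowest value of Sp5 is set against a single D5 library with no count and is no bound.

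Location, duration and their interaction took 57.2%, 28.6% and 14.2% of the sum of squares with library size alone, 56.2%, 29.2% and 14.5% with a prior count of 0.5, and 69.9%, 18.5% and 11.6% at a mean of at least 10 CPM. Location is the pair in the reported fit. The replicate number is 1 in every condition and pairs nothing. Genes under the limit of 3 counts in a library cannot be compared there.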
